A study of Mus musculus with 6 samples.

Results

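The enzymes that turn squalene into cholesterol were followed in MC3T3-E1 cells, a mouse pre-osteoblast line from newborn skull bone, during osteogenic induction with or without metformin. The set held 9 of the 54532 genes in the deposited expression table: Sqle, Lss, Cyp51, Tm7sf2, Msmo1, Nsdhl, Hsd17b7, Sc5d and Dhcr7. The members were found by their gene names and had been chosen from the pathway with the difference between metformin and control in these same 6 samples already known. Their own differences are therefore given as a description. Where an enzyme is said to be called, this places it in the fit over all genes and tests nothing about the set, and no p is given. The control group was 3 samples of MC3T3-E1 cells in osteogenic medium. The metformin group was 3 samples of the same line in the same osteogenic medium with metformin. The study's methods give 3 days of induction, and its results give 0.2 mM metformin. Both groups are 1 cell line with no genetic change stated, and the study's methods call the replicates biological. The labels do not say whether they came from separate cultures. If they did not, the p-values below measure only the spread between these samples, which may be technical.

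Squalene is the last intermediate of cholesterol synthesis without rings. It is first oxidised and then folded into lanosterol, from which methyl groups are removed and double bonds are moved or reduced until cholesterol is left. The enzymes sit in the membrane of the endoplasmic reticulum. Their genes are classic targets of SREBP-2, a membrane-bound transcription factor that is released when the sterol content of this membrane falls, and that binds sterol regulatory elements in promoters, often beside sites for the factors NF-Y and Sp1. Cholesterol and its oxidised forms also bind Smoothened, the transducer of Hedgehog signalling, which takes part in osteoblast differentiation.

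The promoter letters of the genes with the largest and smallest differences between groups are given first, because the pathway is best known for its shared promoter control. RefSeq start sites on GRCm38.p6 were found for 8 of the 9 enzymes, with 3 start sites for Dhcr7 and 1 for each of the others. The stretches below are the parts of the 250 bases before a start site that lie in no annotated exon, and run 5′ to 3′ on the strand of the gene. The capitals mark matches on either strand to TCACNNCA, a loose form of the sterol regulatory element, to CCAAT, the NF-Y box, and to GGGCGG, the Sp1 box. Hsd17b7 is read from chr1:169969242-169969408 on the minus strand, Cyp51 from chr5:4104747-4104947 on the minus strand, and the first start site of Dhcr7 from chr7:143822917-143823144 on the plus strand.
Hsd17b7: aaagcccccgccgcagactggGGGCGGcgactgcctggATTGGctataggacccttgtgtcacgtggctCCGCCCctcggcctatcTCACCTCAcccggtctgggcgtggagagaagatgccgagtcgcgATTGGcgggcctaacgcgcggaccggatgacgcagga
Cyp51: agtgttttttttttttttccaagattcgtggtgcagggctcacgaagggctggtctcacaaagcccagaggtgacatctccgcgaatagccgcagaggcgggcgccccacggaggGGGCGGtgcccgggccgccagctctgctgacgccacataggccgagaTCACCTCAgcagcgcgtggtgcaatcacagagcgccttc
Dhcr7: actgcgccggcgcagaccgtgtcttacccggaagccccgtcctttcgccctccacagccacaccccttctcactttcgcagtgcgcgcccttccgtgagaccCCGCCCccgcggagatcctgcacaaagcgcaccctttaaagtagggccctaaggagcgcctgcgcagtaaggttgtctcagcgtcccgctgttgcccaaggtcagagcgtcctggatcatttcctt

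Hsd17b7 and Cyp51 each held 1 match to the loose sterol regulatory element, beginning at positions -117 and -88 from the start site, and the letters of both matches were TCACCTCA. Matches that lie in annotated exons, such as the NF-Y box of Cyp51, fall outside the printed stretches. The first start site of Dhcr7 held no match to this element and none to the NF-Y box. Lss, Tm7sf2 and Nsdhl, which were called higher with metformin, also held no match to the element. Msmo1 held 2 matches and was not called. Whether the element goes with the difference between groups was not tested. Matches to the loose element near each start site are set side by side below, in 24-base windows on the gene's strand with the 8 matching letters in capitals, so that their bases can be compared. The number before each window is the distance in bases of the first capital from the start site. The windows of Dhcr7 belong to its other start sites, where all 250 bases lie in annotated exons of Dhcr7. The windows of Msmo1 lie outside its longest exon-free stretch, positions -250 to -215, and inside the listed span of the gene itself.
Cyp51 at -88 (chr5:4104770-4104793): ggccgagaTCACCTCAgcagcgcg
Msmo1 at -177 (chr8:64733740-64733763): cactattcTCACTCCAtccgcgca
Msmo1 at -92 (chr8:64733655-64733678): cggaccaaTCACTGCAcggcgaag
Hsd17b7 at -117 (chr1:169969307-169969330): ggcctatcTCACCTCAcccggtct
Sc5d at -52 (chr9:42264337-42264360): atccgccgTCACATCAgcttattg
Dhcr7 at -130 (chr7:143823261-143823284): aaaagggcTCACTTCAccttatag
Dhcr7 at -32 (chr7:143830174-143830197): ctgtgaccTCACATCAtctggggc

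The loose element occurred in 5 of the 8 enzymes with a promoter sequence, that is before 6 of their 10 start sites, and in 11.4% of the 32851 mouse start sites searched in the same way. Its stricter form TCACNCCA, all of whose matches are also matches to the loose form, occurred only in Msmo1 among these enzymes and in 3.67% of all start sites. The NF-Y box occurred in all 8 genes, before 8 of their 10 start sites, against 33.8% of all start sites. The Sp1 box occurred in all 8 genes, before 9 of the 10 start sites, against 32.7%. Its letters are all G or C, and the GC content of the enzymes' 250 bases ran from 44.8% to 73.6%. The 32851 start sites were not matched for GC content, so these shares are not compared like with like. In Msmo1, 1 NF-Y box shared 1 base with the sterol element that begins at position -92. Both strands were searched, and the letters were chosen after the sequences were seen. The counts include matches in annotated exons, so not all of them lie in sequence outside genes. A match is a string of letters and not a measured binding site, and no binding data were analysed here.

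**Figure D1:**
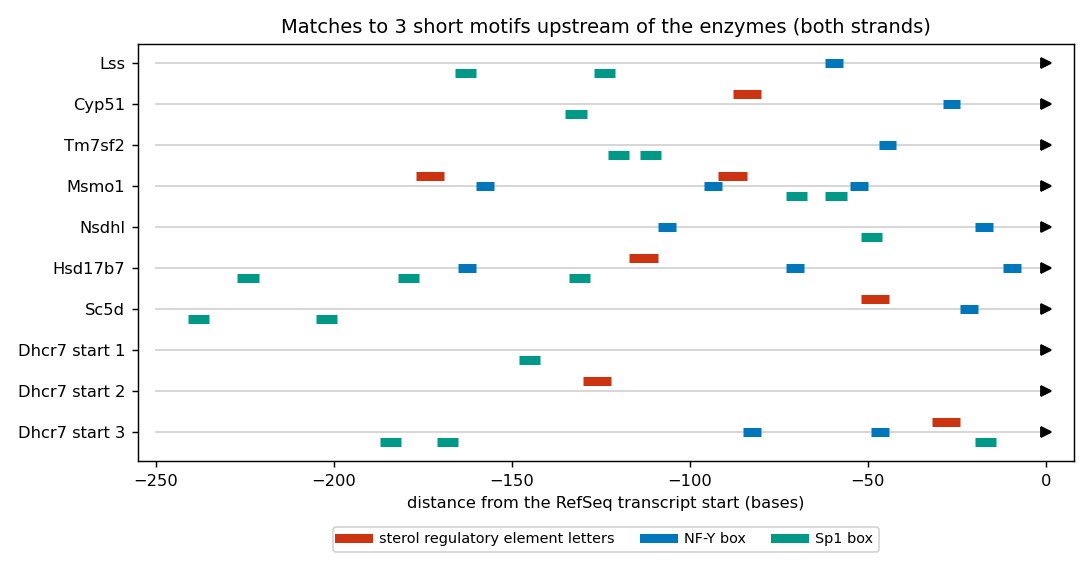
Positions of the promoter letters in the 250 bases before each RefSeq start site of the 8 enzymes with a promoter sequence; the horizontal axis is the distance from the start site in bases and each row is a start site. Marks show matches to the sterol regulatory element, the NF-Y box and the Sp1 box on either strand, those in annotated exons included. The loose sterol element appears in Cyp51, Msmo1, Hsd17b7, Sc5d and the downstream start sites of Dhcr7.

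RNA levels were given as FPKM, the number of fragments relative to the length of the gene and to the size of the library after scaling between samples. Between 18399861 and 22111790 reads per sample stood behind the table, and the least covered enzyme, Tm7sf2 in 1 control sample, still had 147 reads, which gives a counting error of 8.25%. Control replicate 1 stood apart, with correlations over all tested genes of 0.96 and 0.952 with the other controls, which had 0.988 with each other. Mitochondrially encoded genes took 6.36% to 10.01% of control reads and 2.72% to 3.16% of metformin reads. All 10 proliferation genes listed were called higher with metformin, with summed levels of 76.6 to 103 FPKM in controls and 332 to 339 FPKM with metformin. Over all tested genes, 13.2% were called higher and 9.28% lower. The gene lists used here were chosen with earlier results of these data known. All 9 osteoblast markers were present and went both ways, with 2 called higher (Col1a1 and Col1a2), 3 lower (Ibsp, Spp1 and Dmp1) and 4 neither. Their summed levels were 10078 to 11832 FPKM in controls and 6828 to 7222 FPKM with metformin, of which Spp1 alone made up 6565 to 8357 FPKM and 2680 to 2727 FPKM. When each of the 6 samples was left out in turn, Col1a1 kept its call in 3 fits and Col1a2 in 4. Ibsp, Spp1 and Dmp1 kept theirs in all 6. The summed macrophage markers were 15.3 to 26.0 FPKM in controls and 27.1 to 30.9 FPKM with metformin, with 3 of 5 below 0.5 FPKM in every sample. Nearly all of this sum was Lyz2, which was not called, while Cd68 was called lower, at 1.96 to 2.15 FPKM in controls and 1.04 to 1.28 FPKM with metformin. Cd68 rested on only 26 to 53 reads per sample. Summed adipocyte markers were 1.65 to 3.18 FPKM and 1.89 to 2.31 FPKM, with 4 of 5 below 0.5 FPKM throughout and 1 at 0, and summed chondrocyte markers were 26.6 to 39.9 FPKM and 28.7 to 30.4 FPKM, with 2 of 4 below 0.5 FPKM. All 4 endothelial and all 4 skeletal muscle markers were below 0.5 FPKM in every sample, 2 of the muscle markers at 0. The part of these differences in the sterol results was not tested. In bulk samples, a change in the share of cells that express a gene and a change in RNA per cell cannot be told apart.

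Of the 9 enzymes, 7 were called higher with metformin and none was called lower. Across all 12681 tested genes, 13.2% were called higher and 9.28% lower by limma-trend on log2(FPKM + 1) at a Benjamini-Hochberg adjusted p under 0.05. For 8 of the 9 enzymes all 3 metformin samples lay above all 3 control samples, a pattern that 23.6% of tested genes showed in this direction and 20.5% in the other. Since the enzymes were chosen with this contrast known, nothing is read from these shares. The median log2 fold change of the 9 was 1.07, and that of all tested genes was 0.01. All fold changes on the log2 scale below are of FPKM + 1 and are smaller than the ratio of FPKM for genes of low level.

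Sqle, squalene epoxidase, carries out the first oxygen-dependent step and is a control point of the pathway. The gene lies at chr15:59315077-59331192 on the plus strand. It had 21.6, 17.4 and 16.2 FPKM in control replicates 1, 2 and 3 and 40.7, 42.7 and 40.0 FPKM in metformin replicates 1, 2 and 3. Every metformin sample was above every control sample, and the lowest metformin value was 1.85 times the highest control value. The means were 18.4 ± 2.84 and 41.2 ± 1.40 FPKM (SD, n = 3 each), a ratio of 2.23 and a log2 fold change of 1.13 (SE 0.12).

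Lss, lanosterol synthase, folds the oxidised squalene into the first sterol. It lies at chr10:76531588-76557138 on the plus strand. It was one of the lowest of the enzymes, at 2.52, 2.92 and 3.10 FPKM in the controls and 6.95, 7.37 and 7.41 FPKM with metformin. The 3 controls stood close together here, and no value of either group came near the other group. The means were 2.85 ± 0.30 and 7.24 ± 0.25 FPKM (SD, n = 3 each), a ratio of 2.54 and a log2 fold change of 1.10 (SE 0.09). Its exons share 381 bases, or 3.53% of their length, with 4930483K19Rik on the opposite strand, and the library kit named in the labels does not mark strand, so reads there cannot be assigned.

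Cyp51, the haem enzyme that takes the first methyl group off lanosterol, had the highest mean FPKM of the 9 genes in both groups. It lies at chr5:4081145-4104746 on the minus strand. The controls had 53.8, 40.7 and 33.8 FPKM and the metformin samples 93.7, 99.96 and 97.5 FPKM. The spread was in the controls, with replicate 1 the highest, and the metformin samples stood together above them. The means were 42.8 ± 10.1 and 97.1 ± 3.13 FPKM (SD, n = 3 each), a ratio of 2.27 and a log2 fold change of 1.19 (SE 0.17). An overlap of 166 bases, or 3.76% of its exons, with Akap9 on the opposite strand carries the same limit as for Lss.

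Tm7sf2 encodes a sterol reductase that acts on the product of Cyp51, a step it shares with the lamin B receptor. It is listed at chr19:6062821-6077197 on the minus strand. It had the lowest mean FPKM of the 9 genes in both groups, at 1.44, 2.72 and 2.11 FPKM in the controls and 4.44, 4.32 and 4.86 FPKM with metformin. Control replicate 1 was the lowest control here, unlike in Cyp51. The means were 2.09 ± 0.64 and 4.54 ± 0.28 FPKM (SD, n = 3 each), a ratio of 2.17 and a log2 fold change of 0.86 (SE 0.16). In GENCODE M21 the gene ends at position 6068373, short of the listed end, and 532 bases or 12.1% of its exons overlap Vps51 on the same strand, so its reads are uncertain. That share is of the 4403 exon bases in GENCODE M21. The listed length is 5593 bases, and overlaps of the further bases were not counted.

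Msmo1, Nsdhl and Hsd17b7 act in turn, as an oxygenase, a dehydrogenase that releases the carbon, and a reductase, to strip the remaining extra methyl groups from the ring. Msmo1 (chr8:64718139-64733792, minus strand) had 38.0, 23.2 and 16.4 FPKM in the controls and 43.5, 43.7 and 42.3 FPKM with metformin. It was not called, although the groups did not overlap: control replicate 1 came within a factor of 1.11 of the lowest metformin sample and the other controls lay well below. The means were 25.9 ± 11.04 and 43.2 ± 0.76 FPKM (SD, n = 3 each), a ratio of 1.67 and a log2 fold change of 0.80 (SE 0.27). Without control replicate 1 the log2 fold change was 1.11 and the gene was called higher.

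Nsdhl (chrX:72918557-72958514, plus strand) varied least between controls of these 3 genes. It had 6.89, 7.64 and 6.47 FPKM in the controls and 15.9, 16.3 and 15.2 FPKM with metformin. Here control replicate 1 lay between the other controls, and the groups stood far apart. The means were 7.0 ± 0.59 and 15.8 ± 0.59 FPKM (SD, n = 3 each), a ratio of 2.26 and a log2 fold change of 1.07 (SE 0.09).

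Hsd17b7 (chr1:169949535-169969241, minus strand) had the highest ratio of the 9 enzymes. It had 9.36, 6.32 and 4.99 FPKM in the controls and 22.2, 23.1 and 21.0 FPKM with metformin, and the lowest metformin value was 2.24 times the highest control value. Control replicate 1 was again the highest control. The means were 6.89 ± 2.24 and 22.1 ± 1.09 FPKM (SD, n = 3 each), a ratio of 3.21 and a log2 fold change of 1.59 (SE 0.19). Leaving out each sample in turn moved this log2 fold change between 1.41 and 1.80.

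Sc5d, the desaturase that adds a double bond to the sterol ring shortly before the end of the pathway, lies at chr9:42251595-42264256 on the minus strand. The controls had 8.78, 7.59 and 6.86 FPKM and the metformin samples 15.8, 16.3 and 16.1 FPKM. The metformin samples were nearly equal and all above the controls. The means were 7.74 ± 0.97 and 16.1 ± 0.26 FPKM (SD, n = 3 each), a ratio of 2.07 and a log2 fold change of 0.97 (SE 0.10).

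Dhcr7, the reductase that forms cholesterol from the sterol that is also the precursor of vitamin D in skin, was the exception. It lies at chr7:143823145-143848410 on the plus strand. It had 12.8, 14.97 and 15.9 FPKM in the controls and 12.7, 13.5 and 12.2 FPKM with metformin. The groups overlapped, since control replicate 1 lay among the metformin samples. The means were 14.6 ± 1.56 and 12.8 ± 0.67 FPKM (SD, n = 3 each), a ratio of 0.879 and a log2 fold change of -0.17 (SE 0.10). It was not called, but without control replicate 1 its log2 fold change was -0.25 and it was called lower.

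**Figure D2:**
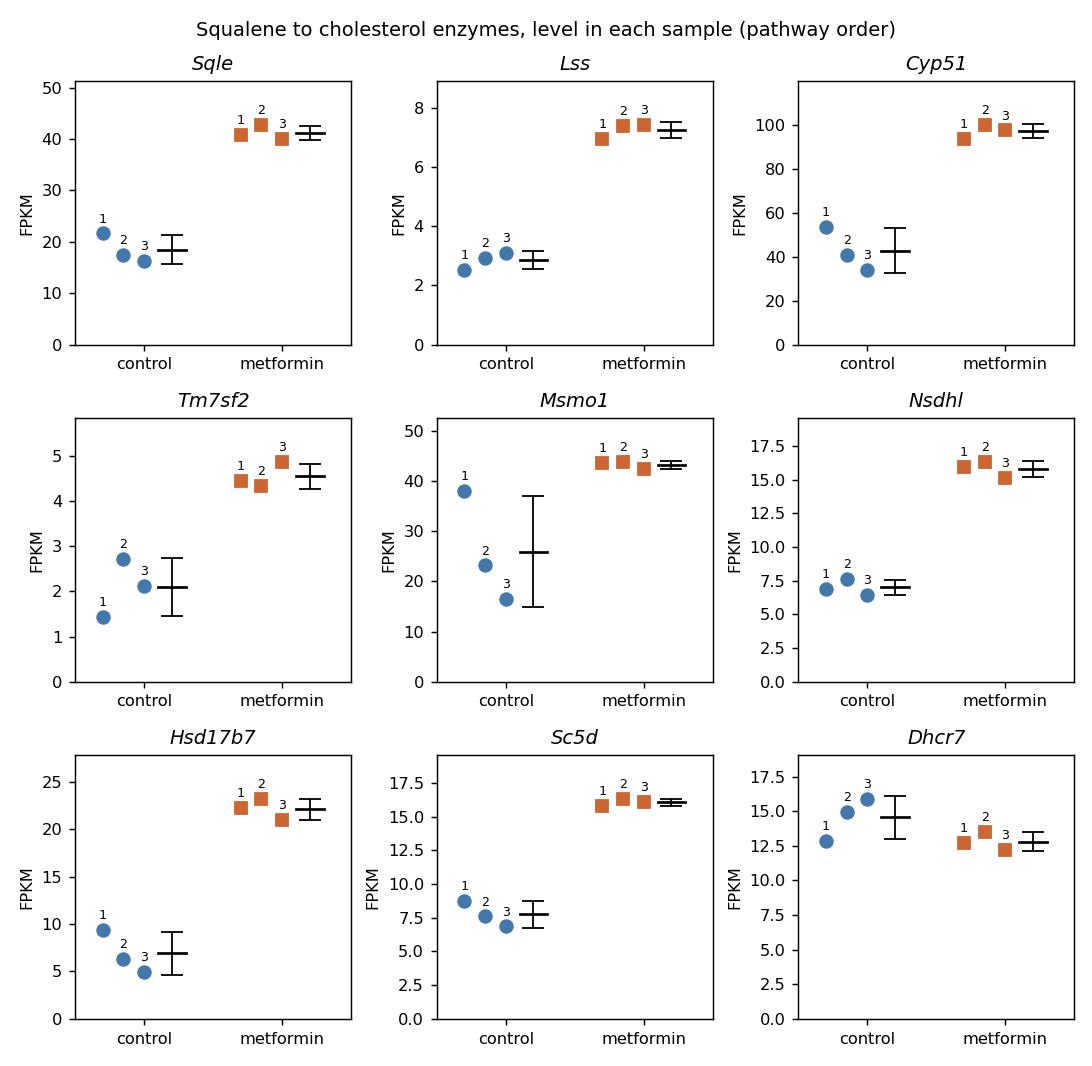
FPKM of each of the 9 enzymes in pathway order, with circles for the 3 control samples, squares for the 3 metformin samples, replicate numbers beside the points, and a bar with error bars for the mean and SD. All metformin points lie above all control points except for Dhcr7, whose control replicate 1 lies among the metformin samples.

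**Figure D3:**
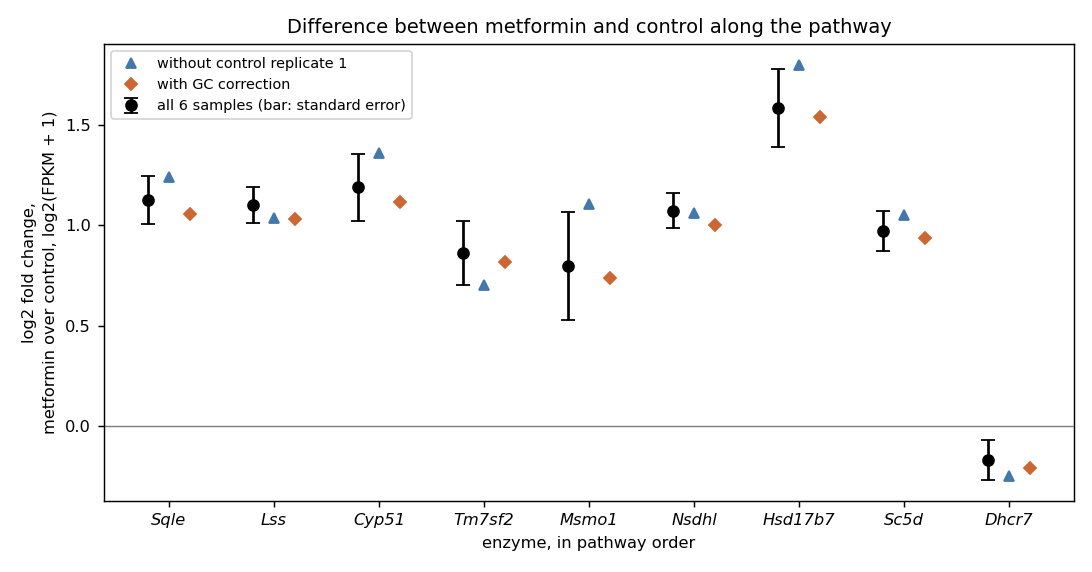
Log2 fold change of FPKM + 1, metformin against control, for the 9 enzymes in pathway order, with circles and SE bars for all 6 samples (limma-trend), triangles for the value without control replicate 1 and diamonds for the value with the GC correction. The 7 enzymes called higher lie between 0.86 and 1.59, Msmo1 has the longest bar, and Dhcr7 lies at -0.17.

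The summed FPKM of the 9 enzymes was 155, 123 and 106 in the controls and 256, 267 and 256 with metformin. No control reached the lowest metformin sum, and the controls spread more widely. The means were 128 ± 25.0 and 260 ± 6.43 FPKM (SD, n = 3 each), a ratio of 2.03. The enzymes took 0.068% of all reads in the controls and 0.133% with metformin.

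The order of the FPKM levels changed in the middle of the set. In the controls it ran Cyp51, Msmo1, Sqle, Dhcr7, Sc5d, Nsdhl, Hsd17b7, Lss and Tm7sf2 from high to low. The single samples of neighbours overlapped for Cyp51 with Msmo1, Msmo1 with Sqle, Sc5d with Nsdhl, Nsdhl with Hsd17b7, and Lss with Tm7sf2, so the order within those pairs was not resolved. With metformin the order was Cyp51, Msmo1, Sqle, Hsd17b7, Sc5d, Nsdhl, Dhcr7, Lss and Tm7sf2, and only Msmo1 with Sqle and Sc5d with Nsdhl overlapped. Dhcr7 thus stood 4th in the controls and 7th with metformin, and Hsd17b7 the reverse. As a share of the summed FPKM, Dhcr7 was 11.4% in the controls and 4.92% with metformin, Hsd17b7 was 5.38% and 8.50%, and Cyp51 was 33.4% and 37.3%. The FPKM divide by the summed length of all exons of a gene. Divided by the principal transcript alone, Msmo1 led in both groups, at 77.8 and 130 on that scale against 48.0 and 109 for Cyp51, Dhcr7 stood 4th in both groups, at 30.1 and 26.4, and Hsd17b7 stood 8th in the controls and 5th with metformin. The change of place of Dhcr7 thus depended on the length used. The listed length of Msmo1 is 6144 bases and its principal transcript 2044. Tm7sf2, last by FPKM in both groups, stood 6th in the controls and 7th with metformin by principal transcript. Its listed length is 5593 bases and its principal transcript 1471.

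The spread of the enzymes between replicates was larger in the controls. Their coefficient of variation had a median of 15.4% in the controls, from 8.42% to 42.7%, and a median of 3.52% with metformin, from 1.62% to 6.14%. All tested genes had medians of 17.1% and 5.47%, so the gap was not limited to the enzymes. Without control replicate 1 the medians in the controls were 11.7% for the enzymes and 7.93% for all tested genes.

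Control replicate 1 was the highest of the controls for Sqle, Cyp51, Msmo1, Hsd17b7 and Sc5d, the lowest for Lss, Tm7sf2 and Dhcr7, and in the middle for Nsdhl. On the log2 scale it differed from the mean of the other controls by 0.93 for Msmo1, 0.64 for Hsd17b7 and 0.52 for Cyp51, and by -0.48 for Tm7sf2. These differences went with the GC content of the longest transcript, which was 44.7% for Msmo1, 43.9% for Hsd17b7 and 46.2% for Cyp51 but 51.0% for Tm7sf2 and 52.8% for Dhcr7. Over the 9 enzymes, which share the library, the correlation was -0.72 (Pearson) and -0.72 (Spearman), and over all tested genes the Spearman correlation was -0.67. Without this sample the ratio of metformin to control ran from 1.88 for Tm7sf2 to 3.91 for Hsd17b7 among the genes other than Dhcr7, for which it was 0.83. A fit that took GC content into account called 8 enzymes higher, Msmo1 now among them, and Dhcr7 lower at a log2 fold change of -0.21.

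**Figure D4:**
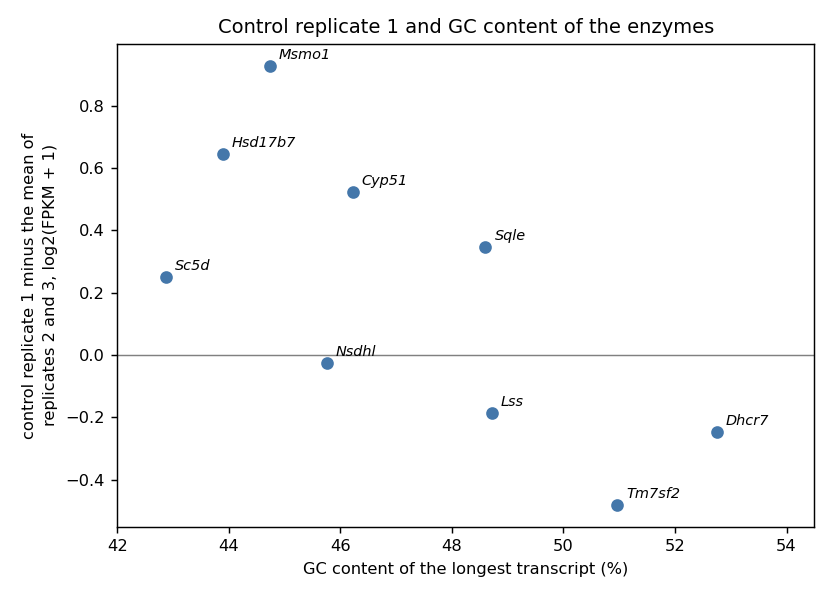
Difference on the log2 scale between control replicate 1 and the mean of the other controls for each of the 9 enzymes, plotted against the GC percent of the longest transcript. Msmo1 is highest at 0.93 and Tm7sf2 lowest at -0.48, Sc5d, Hsd17b7, Cyp51 and Sqle also lie above 0, Dhcr7 and Lss lie below 0, and Nsdhl is next to 0.

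The enzymes moved together over the 6 samples to different degrees. The correlation of each with the mean of the others was highest for Nsdhl at 0.996 and was 0.989 for Sc5d, 0.984 for Sqle, 0.97 for Hsd17b7, 0.966 for Lss and 0.963 for Cyp51. It was lower for Tm7sf2 at 0.874 and Msmo1 at 0.757, and -0.76 for Dhcr7. Each of these describes 6 points in 2 groups and mostly carries the gap between the groups. The genes outside the sterol lists whose pattern was most like that of the enzymes were Ldha at 0.9999, Tuba1b at 0.9993, Aif1l at 0.9993, Efnb2 at 0.9991 and Synpo2 at 0.9988 (Pearson, 6 samples). Ldha encodes a lactate dehydrogenase subunit and had 110 to 121 FPKM in controls and 220 to 237 FPKM with metformin. Synpo2 had 0.33 to 0.43 FPKM in controls and 1.64 to 1.85 FPKM with metformin. It passed the filter on low values only through its metformin samples. A gene with such control levels was tested only if it was higher with metformin, so the likeness of Synpo2 was partly set by the filter. Ldha and Tuba1b have near-identical transcripts of other genes, 4 and 11 of them, so their levels are uncertain. Such likeness was common, with 1595 of 12681 tested genes, or 12.6%, above 0.9.

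The other genes of the sterol pathway were counted by lists drawn up from textbook roles with earlier results of these data known. Of 29 tested, 13 were called higher, 3 lower and 13 neither, against the 13.2% and 9.28% of all tested genes. Since these lists were drawn up with such results known, nothing is read from these shares. The adjusted p given below are those of single genes and test nothing about a list. The 13 called higher include Fdps, which passed the filter on low values only through its metformin samples. Both other genes that act after squalene were higher with metformin. Lbr, whose protein shares the reductase step with Tm7sf2, had 9.43, 10.04 and 9.06 FPKM in the controls and 17.6, 18.6 and 17.5 FPKM with metformin, a log2 fold change of 0.85 (SE 0.08, limma-trend adjusted p = 0.000636). Erg28, which encodes a scaffold for the demethylation enzymes, had 7.02, 6.16 and 5.08 FPKM and 9.75, 9.76 and 9.44 FPKM in that order, a log2 fold change of 0.60 (SE 0.11, limma-trend adjusted p = 0.0115). Lbr shares transcript sequence with Dnah14, so its level is uncertain. Erg28 was not called without metformin replicate 1, 2 or 3, where its limma-trend adjusted p was 0.0581, 0.0586 and 0.051.

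The oxygenases of the pathway draw electrons from Por, the P450 reductase, and from the cytochrome b5 system. None of these 4 genes was called. Their log2 fold changes were 0.09 for Por, 0.19 for Cyb5a, 0.15 for Cyb5b and 0.31 for Cyb5r3, with limma-trend adjusted p of 0.733, 0.374, 0.362 and 0.0611. Cyb5r3 shares sequence with Gm49463 on the opposite strand and is uncertain. Without control replicate 1, Cyb5b and Cyb5r3 were called higher at 0.23 and 0.25, with limma-trend adjusted p of 0.0137 and 0.0187, and without control replicate 3 Cyb5r3 was called at 0.37 with a limma-trend adjusted p of 0.041. With the GC correction Cyb5r3 was also called, at 0.26 (limma-trend adjusted p = 0.0232).

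Upstream, 8 of 9 genes from acetyl-CoA to squalene were called higher, with a median log2 fold change of 1.13. The count and the median include Fdps, at 0.28 to 0.40 FPKM in controls and 1.32 to 2.09 FPKM with metformin. It passed the filter on low values only through its metformin samples, so its place in the count was partly set by the filter. The count was 7 without control replicate 3 or metformin replicate 1 or 3, where Pmvk, a kinase of the pathway, lost its call, and 6 without metformin replicate 2, where Hmgcs1, the synthase before mevalonate, lost its call too. Pmvk had a log2 fold change of 0.80 (limma-trend adjusted p = 0.0411), and 0.0601, 0.129, 0.133 and 0.103 were its limma-trend adjusted p without control replicate 3 and metformin replicates 1, 2 and 3. Idi1, which interconverts the isoprenoid building blocks, had 6.64, 2.98 and 3.03 FPKM in the controls and 15.2, 16.2 and 15.7 FPKM with metformin, a log2 fold change of 1.75 (SE 0.25, limma-trend adjusted p = 0.00386). Acat2, which joins acetyl groups in the first step, had a log2 fold change of 1.56 (SE 0.14, limma-trend adjusted p = 0.000478), and Mvd, the decarboxylase of the pathway, of 1.46 (SE 0.20, limma-trend adjusted p = 0.00306). All metformin samples of these genes were above all controls. Idi1, Acat2, Hmgcs1, Fdps and Fdft1 share sequence with near-identical transcripts of other genes, so their levels are uncertain. The gene that was not called was Ggps1, which leads isoprenoids away from sterols, shares transcript sequence with Arid4b and is named after its value was seen, at a log2 fold change of -0.23 (SE 0.19, limma-trend adjusted p = 0.437).

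Among 9 genes that control SREBP or carry sterols, 3 were called higher and 1 lower, with a median log2 fold change of 0.06. Insig1, which holds SREBP in the endoplasmic reticulum and is itself an SREBP target, had 22.6, 21.7 and 22.4 FPKM in the controls and 55.3, 59.0 and 54.6 FPKM with metformin, a log2 fold change of 1.30 (SE 0.08, limma-trend adjusted p = 0.000142). Stard4, a carrier of cholesterol between membranes, had a log2 fold change of 1.28 (SE 0.19, limma-trend adjusted p = 0.00485), and Srebf2, the gene of SREBP-2, of 0.66 (SE 0.10, limma-trend adjusted p = 0.00421). The gene called lower was Insig2, named after its value was seen, at -0.62 (SE 0.17, limma-trend adjusted p = 0.0427). Its call was lost with a replicate block (limma-trend adjusted p = 0.0787) and without control replicate 2 or metformin replicate 1, 2 or 3, where the limma-trend adjusted p was 0.11, 0.144, 0.141 and 0.10. Scap, another gene of this list, was not called at -0.07, but without control replicate 1 it was called lower at -0.25 (limma-trend adjusted p = 0.0214). It shares sequence with 5830462I19Rik on the opposite strand and is uncertain.

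Of 8 genes of sterol efflux, storage and breakdown, 5 were tested, of which 2 were called lower and none higher, with a median log2 fold change of -0.19. Abca1, the main exporter of cholesterol and a target of the liver X receptors, had 3.47, 2.48 and 2.99 FPKM in the controls and 0.822, 0.753 and 0.629 FPKM with metformin, a log2 fold change of -1.19 (SE 0.12, limma-trend adjusted p = 0.000857). Mylip, a ligase that marks lipoprotein receptors for breakdown and is another target of these receptors, had a log2 fold change of -1.02 (SE 0.09, limma-trend adjusted p = 0.000407). Every metformin sample of both genes was below every control. Nr1h2, the gene of a liver X receptor, was not called at -0.19, but without control replicate 1 it was called lower at -0.47 (limma-trend adjusted p = 0.000734), and with the GC correction at -0.28 (limma-trend adjusted p = 0.0356). Without that sample Soat1, which esterifies cholesterol, was also called, at 0.23 (limma-trend adjusted p = 0.0358).

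**Figure D5:**
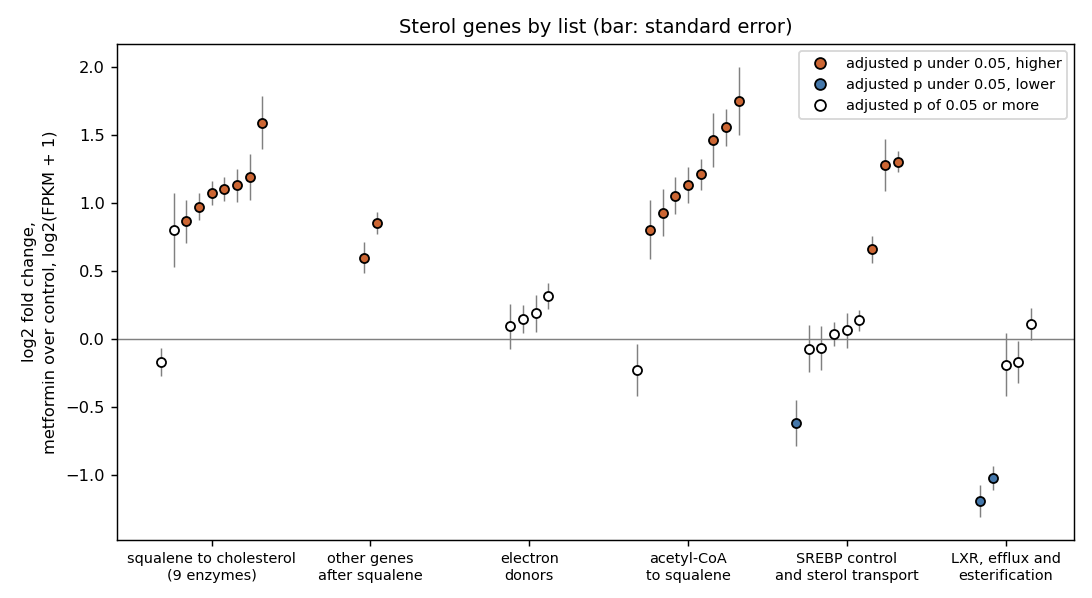
Log2 fold change of FPKM + 1, metformin against control, for each tested gene of the 9 enzymes and of the other sterol lists, 1 point per gene with its SE as a bar, filled where the gene was called higher or lower and open where it was not. LXR stands for liver X receptor. Most points of the enzymes after squalene and of the genes from acetyl-CoA to squalene lie near their medians of 1.07 and 1.13, each list with 1 gene below 0, and all electron donors are open points.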

How the data were processed

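RNA from 6 samples of MC3T3-E1 cells was sequenced with a TruSeq RNA kit. The authors deposited FPKM per gene for 54532 genes, a unit that was read from the values and gene lengths. The submitters' notes name Bowtie 0.12.2 and the builds mm8 and mm9 without a role, but 53499 genes have the coordinates of GENCODE M21 on GRCm38, so coordinates here are on GRCm38. The aligner's settings and the use of strand in counting are not given in the sources used here. All deposited FPKM above 0 gave whole reads when multiplied by gene length and scaled (tolerance 0.01 reads).

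Genes with a mean of at least 0.5 FPKM (12681) were tested on log2(FPKM + 1) with limma-trend (limma 3.58.1, R 4.3.3), metformin against control, with Benjamini-Hochberg adjustment over all of them and a threshold of 0.05. This test was used in place of the count model of the study because the deposited values are FPKM, and the reads recovered from them entered 1 alternative only. The test was checked on simulated data with the same spread for all genes and both groups. That check does not cover the wider spread of the controls or a sample that stands apart. A gene "called higher" or "lower" passed this threshold. The 3 and 3 samples were grouped by their treatment label. The fit was repeated with each sample left out, without a filter, with 10 or more reads required per sample, with library totals for scaling, with a pseudocount of 0.1, with a replicate block, with voom on the recovered reads and with a GC correction.

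The members and lists were chosen with earlier results of these data known. Named were all 9 enzymes, up to 3 genes of largest log2 change of each sterol list (all genes of lists of up to 6), and the 5 genes most like the enzymes over the 6 samples. Promoters were shown for the enzymes with the 3 largest and the smallest log2 changes where the RefSeq table had an entry. Near-identical transcripts (at least 95% over 200 bases) were looked for with BLAST+ 2.17.0, and none was found for the 9 enzymes. Soat1, Pmvk, Hmgcs1, Ggps1, Fdps, Fdft1, Scap, the single cell type markers and Insig2 lie outside this rule and were named after their values were seen. Some genes of the pathway are not reported here.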

Additional observations from a re-analysis of the deposited data

How the results depend on the processing

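With 3 samples a group from 1 cell line, intervals cover only the spread between these samples. The count of the 9 enzymes called higher was 7 with voom, with the replicate block, without a filter, with at least 10 reads in every sample, with library totals for scaling and with a pseudocount of 0.1, and 8 with the GC correction, alone or with the block. It was 7 to 8 on leaving out each sample, 8 without control replicate 1. Their median log2 fold change lay between 1.00 and 1.165 under all alternatives, and no gene reversed its direction among the enzymes. The called count of the other sterol genes that were higher ran from 10 to 16, against 13. Msmo1 gained a call with the GC correction, with and without the block, and Dhcr7 with the GC correction alone; both gained one without control replicate 1.

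The counts over all genes moved more. Of 14 alternatives, 10 kept the count of 1670 higher within 1.5 times and 6 that of 1177 lower. Genes called lower were 698 with the replicate block, 2433 with the GC correction, and 1888 with both. Leaving out each sample gave 938 to 2969 higher and 495 to 2590 lower, both the most without control replicate 1; the cause was not tested, though these fits hold fewer samples. Same-numbered samples did not deviate together, with correlations of -0.0533, 0.000265 and -0.0549. The labels do not say whether same-numbered samples were handled together. These correlations cannot settle it, because the metformin samples differed little from each other. Leaving out metformin replicates gave the counts of 495, 518 and 533 lower, and leaving out control replicate 2 gave 741. The block left 12 of the other sterol genes called higher and 1161 of all genes. Among the sterol genes called, Pmvk (limma-trend adjusted p = 0.0514) and Insig2 lost their calls under it. Both also lost them without a filter, and Pmvk with library totals for scaling (limma-trend adjusted p = 0.0975 and 0.0537 for Pmvk).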
